A study of Mus musculus with 12 samples.

Results

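Glutaredoxins and the core genes of iron-sulfur cluster assembly were followed in splenic B lymphocytes of mice with the genotypes WT, Eμ-Myc and Eμ-Myc;PRPS2 KO. The group was defined by name, as the genes Glrx, Glrx2, Glrx3, Glrx5, Iscu, Nfs1, Isca1, Isca2 and Bola2. All 9 were found among the 24982 gene symbols of the deposited data, and all 9 passed the filter on low values in each comparison. B lymphocytes were taken from spleens at an age of 6 weeks and their polyadenylated RNA was sequenced, in 3 groups of 4 libraries. The WT mice were of the C57BL/J6 strain, and the study asked how Myc, and then loss of PRPS2 on top of Myc, altered gene expression and its link to redox balance. The Eμ-Myc mice carry a Myc transgene under the immunoglobulin heavy-chain enhancer, which acts in the B lineage. The third group, called the knockout group here, carries the same transgene and in addition lacks PRPS2, a phosphoribosyl pyrophosphate synthetase that feeds nucleotide synthesis. No group lacked PRPS2 without the transgene, so an effect of the loss in WT cells cannot be read from these data. The labels call the libraries biological replicates and give neither sex, litter nor date, and they do not say in which cells PRPS2 was deleted.

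Glutaredoxins are small oxidoreductases that use glutathione. The dithiol forms (Glrx and Glrx2) reduce mixed disulfides between proteins and glutathione. The monothiol forms (Glrx3 in the cytosol and nucleus, Glrx5 in mitochondria) hold an iron-sulfur cluster between their subunits and pass it on. In mitochondria the cysteine desulfurase Nfs1 supplies sulfur, Iscu is the scaffold on which a cluster is built, Glrx5 receives the cluster, and Isca1 and Isca2 act in the step that makes the larger clusters. Bola2 is the cytosolic partner of Glrx3. The clusters are cofactors of the respiratory chain, DNA polymerases, primase and DNA helicases.

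Each value below is a scaled coverage, the authors' mean depth over a gene's bases divided by a scaling factor per library. Levels are set beside each other between genes on that scale, although the gene models behind the depth are not given in the sources used here. Libraries are numbered 1 to 4 within a group as the labels do. The genotype labels were checked first. The mean of Prps2 was 131 ± 18.8 (SD, n = 4) in WT libraries and 240 ± 37.2 (SD, n = 4) in Eμ-Myc, and it stood at 18.9, 16.6, 16.4 and 15.5 in the 4 knockout libraries. The mean of Myc was 285 ± 56.0 (SD, n = 4) in WT libraries and 1870 ± 308 (SD, n = 4) in Eμ-Myc, and it stood at 1140, 1670, 2890 and 3140 in the knockout libraries. No library went against its genotype label, but Myc was uneven within the knockout group.

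The libraries also differed in markers of other cell types. All 8 B-cell markers, among them Cd79a, Ms4a1, Pax5 and Cd22, were above 0 in every library. Their scaled coverage summed to 7480, 13400, 11600 and 7010 in WT libraries 1 to 4. It came to 7920 to 9690 in Eμ-Myc and 7210 to 7960 in the knockout group. Markers of T cells summed to 688 to 3670 in WT and 150 to 212 in Eμ-Myc, and to 813, 850, 54.9 and 55.5 in knockout libraries 1 to 4. NK-cell markers summed to 430 to 1730 in WT and 110 to 268 in Eμ-Myc, and to 690, 495, 26.8 and 25.0 in the knockout libraries. Myeloid markers summed to 8940 to 28900 in WT and 5900 to 17000 in Eμ-Myc, and to 17300, 11900, 3020 and 1400 in the knockout libraries. Knockout libraries 1 and 2 therefore stood apart from 3 and 4, with more T-cell, NK-cell and myeloid marker coverage and less Myc. Within the B-cell list Cd22, Cd79a, Ms4a1 and Blnk were also higher in libraries 1 and 2, and Ebf1 was lower. Of the plasma-cell markers Jchain, Tnfrsf17, Prdm1 and Xbp1 were higher there, and Mzb1, Sdc1 and Irf4 were lower. Jchain stood at 190, 228, 1.91 and 2.33 in knockout libraries 1 to 4, and Cd22 at 843, 774, 454 and 452. No marker of these lists was at 0 in all 4 libraries of a group. In such bulk samples fewer cells of a type and less RNA per cell cannot be told apart.

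**Figure D1:**
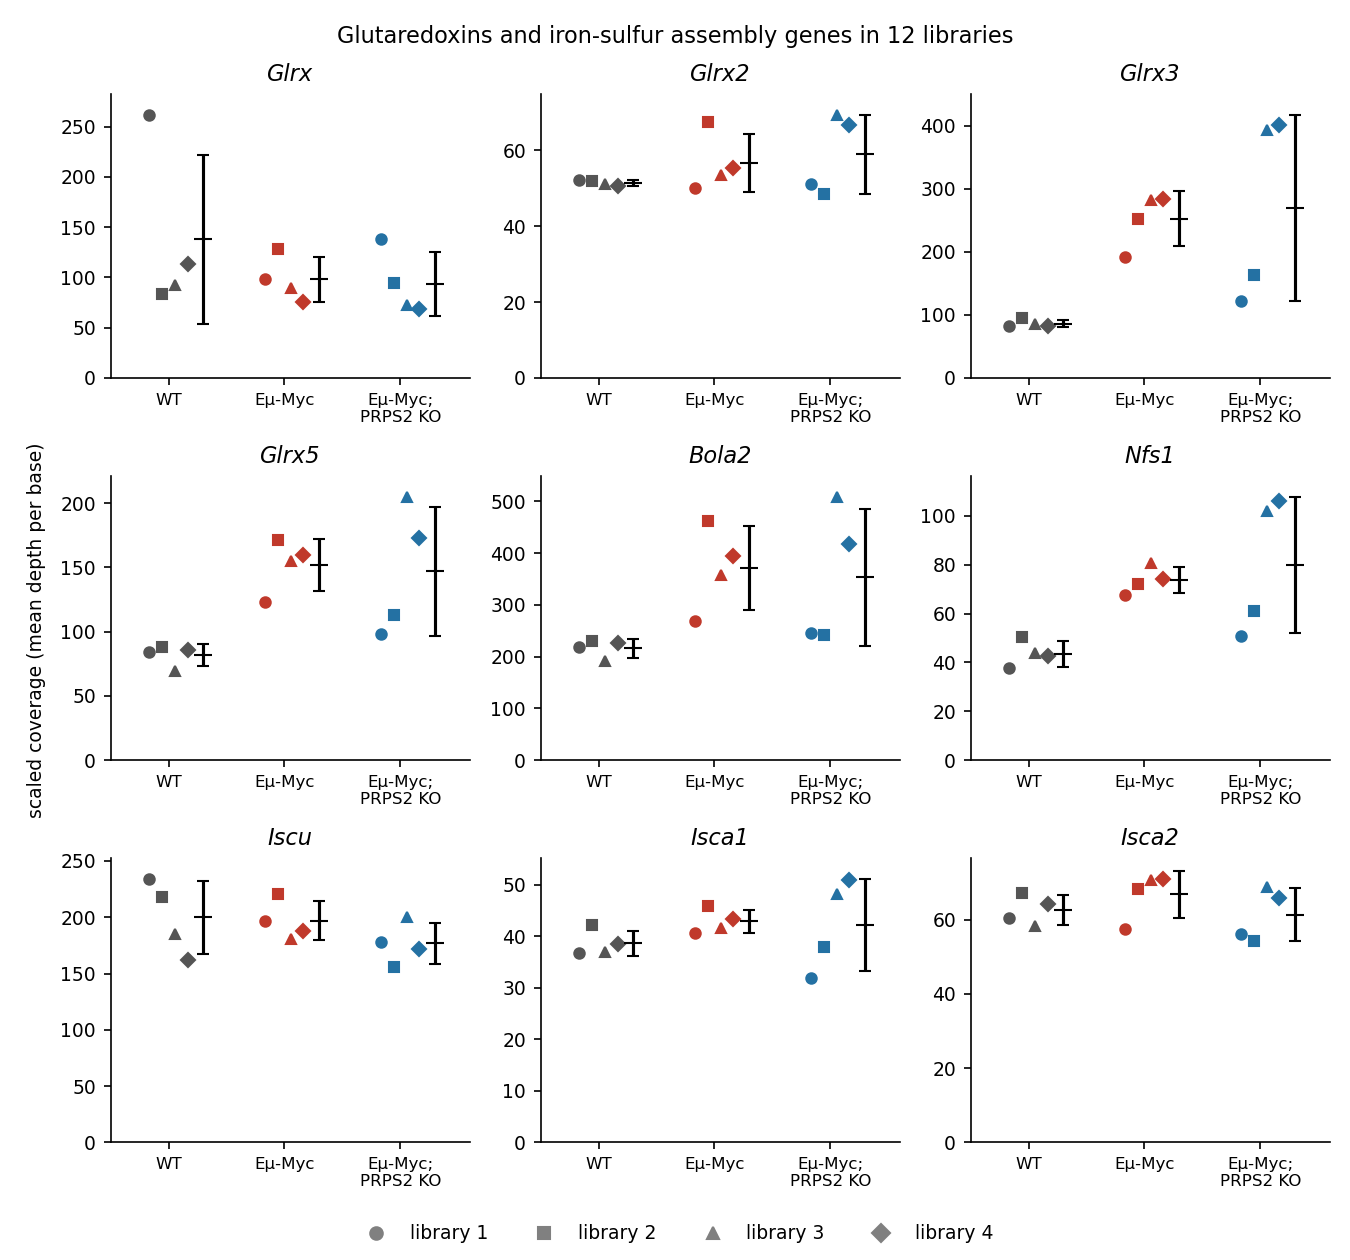
Scaled coverage (mean depth per base) of each of the 9 genes in the 12 libraries, by group; each symbol is a library and the bar gives the mean and SD of 4 libraries. Glrx3, Glrx5, Bola2 and Nfs1 were higher in every Eμ-Myc library than in every WT library, and knockout libraries 1 and 2 lay below 3 and 4 for these 4 genes.

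The effect of the Myc transgene was asked first. In Eμ-Myc B lymphocytes the cytosolic monothiol glutaredoxin Glrx3 was 2.94 times its WT level, and its partner Bola2 was 1.72 times. The mitochondrial monothiol glutaredoxin Glrx5 was at 1.86 times and the sulfur donor Nfs1 at 1.69 times the WT level. The scaffold Iscu, both A-type proteins Isca1 and Isca2, and the dithiol glutaredoxins Glrx and Glrx2 did not pass the test. Every Eμ-Myc library was above every WT library for these 4 genes, against 25.1% of all genes tested. In all, 4 of 9 genes were called higher and 0 lower at an adjusted p under 0.05 (limma, Benjamini-Hochberg over 12699 genes). Over all genes tested 57.1% were called in this comparison, 27% higher and 30.1% lower, so calls were common in general. The median log2 fold change was 0.15 over the 9 genes and -0.11 over all genes tested.

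Glrx3 stood at 82.2, 94.7, 86.1 and 81.9 in WT libraries 1 to 4, at 192, 253, 282 and 284 in Eμ-Myc and at 122, 164, 394 and 401 in the knockout group. Every Eμ-Myc library was above every WT library, and the 4 WT libraries lay close together. The log2 fold change of Eμ-Myc against WT was 1.53 (SE 0.13, adjusted p = 2.61e-05 by limma with Benjamini-Hochberg adjustment). The mean rose from 86.2 ± 5.94 to 253 ± 43.0 (SD, n = 4 each). Glrx3 lies on the plus strand at chr7:137437614-137468594 of GRCm38.

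A processed pseudogene, Gm12669, is 99.1% identical to Glrx3 over 1014 bases, and whether the authors' counting could keep the pair apart is not given in the sources used here. Gm12669 was listed at 97.7 to 116 in WT and 234 to 342 in Eμ-Myc, and its coverage was 1.17 to 1.24 times that of Glrx3 in every one of the 12 libraries. Its log2 fold change in Eμ-Myc was 1.51 (SE 0.13, adjusted p = 2.63e-05 by limma with Benjamini-Hochberg adjustment), next to 1.53 for Glrx3. The level of Glrx3 is therefore uncertain by the share of reads that the copy holds.

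Glrx5 stood at 84.3, 87.8, 69.3 and 85.6 in WT libraries 1 to 4, at 123, 171, 155 and 160 in Eμ-Myc and at 98.2, 113, 205 and 173 in the knockout group. Again every Eμ-Myc library was above every WT library. Glrx5 had a log2 fold change of 0.89 (SE 0.13, adjusted p = 3.68e-04 by limma with Benjamini-Hochberg adjustment), from a mean of 81.8 ± 8.43 to 152 ± 20.5 (SD, n = 4 each). Glrx5 lies on the plus strand at chr12:105032688-105042906 of GRCm38, and it shares no exon with another annotated gene.

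The sequences before the start sites of Glrx3 and Glrx5 are shown because these genes gave the largest log2 fold changes of the 9, and MYC with its partner MAX is known to bind the E-box CACGTG and variants such as CACGCG. They are RefSeq promoter sequences on GRCm38.p6, written 5′ to 3′ and ending at the base before the RefSeq start, with each CCAAT or its reverse complement ATTGG in capitals. The run of Glrx2, which holds the E-box of the set, is given for contrast, with the E-box CACGTG and an ATTGG in capitals, and it ends 73 bases before the start of one of its RefSeq transcripts, where an annotated exon begins.
Glrx3 chr7:137437323-137437572 (+): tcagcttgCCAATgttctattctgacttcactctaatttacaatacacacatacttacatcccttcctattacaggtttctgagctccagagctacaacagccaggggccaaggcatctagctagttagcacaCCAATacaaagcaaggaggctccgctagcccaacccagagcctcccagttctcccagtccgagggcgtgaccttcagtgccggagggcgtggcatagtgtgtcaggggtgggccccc
Glrx5 chr12:105032368-105032617 (+): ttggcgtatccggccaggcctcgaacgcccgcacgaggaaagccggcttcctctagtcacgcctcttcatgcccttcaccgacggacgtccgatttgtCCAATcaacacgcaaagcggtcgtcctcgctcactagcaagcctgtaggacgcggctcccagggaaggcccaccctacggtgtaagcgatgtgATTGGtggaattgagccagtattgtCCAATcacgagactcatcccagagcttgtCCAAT
Glrx2 chr1:143740197-143740374 (+): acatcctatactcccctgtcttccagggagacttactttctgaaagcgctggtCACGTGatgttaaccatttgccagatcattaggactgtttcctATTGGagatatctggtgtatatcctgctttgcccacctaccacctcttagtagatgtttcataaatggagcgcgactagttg

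Motifs were searched on both strands from 250 bases before to 50 bases after each start, and 8 of the 9 genes had such a window. Iscu had none. CACGTG, which reads the same on both strands, was found in 1 of 8 genes, Glrx2, whose log2 fold change of 0.13 did not pass the test (adjusted p = 0.33, limma with Benjamini-Hochberg adjustment). Over all 27025 genes with a window 8.09% held it. CACGCG was found in Glrx2, Glrx3 and Nfs1, against 10.5% of all genes; the match of Glrx3 began at base 39 after the start and lies outside the run printed above. The core of the antioxidant response element, TGACNNNGC, was found in Nfs1 and Isca1, against 14% of all genes. CCAAT, a motif added after the sequences were seen, was found in 6 of 8 genes (Glrx2, Glrx3, Glrx5, Isca1, Isca2 and Bola2), against 41.1% of all genes. The Glrx5 window held 4 of them, at 152, 59, 34 and 5 bases before the start, a number reached by 1.06% of 32851 windows. A match is a description of the letters and no evidence that a factor was bound, and a window without a match says nothing about a factor either.

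Bola2 stood at 219, 230, 191 and 226 in WT libraries 1 to 4, at 268, 463, 358 and 395 in Eμ-Myc and at 245, 241, 509 and 417 in the knockout group. The lowest Eμ-Myc library, library 1, lay close above the highest WT library, and the groups did not overlap. Bola2 had a log2 fold change of 0.75 (SE 0.16, adjusted p = 0.00333 by limma with Benjamini-Hochberg adjustment), from 216 ± 17.8 to 371 ± 81.3 (SD, n = 4 each). Bola2 lies on the plus strand at chr7:126695401-126699798 of GRCm38. Its annotated exons share 360 bases with Slx1b and 26 bases with Coro1a on the opposite strand, and whether the counting used strand is not given in the sources used here. Slx1b stood at 16.2 ± 1.6 and Coro1a at 3750 ± 239 in WT (SD, n = 4 each), with log2 fold changes of -0.17 and -0.20 in Eμ-Myc that did not pass the test.

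Nfs1 stood at 37.6, 50.5, 43.7 and 42.6 in WT libraries 1 to 4, at 67.7, 72.1, 80.6 and 74.1 in Eμ-Myc and at 50.9, 61.2, 102 and 106 in the knockout group. The WT and Eμ-Myc groups did not overlap. Nfs1 had a log2 fold change of 0.75 (SE 0.11, adjusted p = 4.57e-04 by limma with Benjamini-Hochberg adjustment), from 43.6 ± 5.31 to 73.6 ± 5.36 (SD, n = 4 each). Nfs1 lies on the minus strand at chr2:156123639-156144186 of GRCm38, and of its 3612 exon bases 256 are shared with Gm28036 on the same strand and 148 with Romo1 on the opposite strand. Romo1 itself had a log2 fold change of 0.65 (SE 0.16, adjusted p = 0.00599 by limma with Benjamini-Hochberg adjustment), and the part of reads of either gene in the Nfs1 value was not tested.

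For Glrx, Glrx2, Iscu, Isca1 and Isca2 the WT and Eμ-Myc libraries overlapped. The scaffold Iscu ran from 162 to 234 in WT and from 181 to 221 in Eμ-Myc, with a log2 fold change of -0.01 and a 95% interval from -0.30 to 0.28. Isca2 ran from 58.2 to 67.3 and from 57.5 to 71.0, with a log2 fold change of 0.09 (95% interval -0.14 to 0.32). Isca1 ran from 36.8 to 42.2 and from 40.7 to 45.8, with a log2 fold change of 0.15 (95% interval -0.06 to 0.36). The intervals of these scaffold and late-step genes reach no further than 0.36, which lies below the fold change of any of the 4 genes called. Glrx2, the mitochondrial dithiol form, had the narrowest WT range of the 9 genes, from 50.7 to 52.2, and ran from 50.1 to 67.5 in Eμ-Myc. Annotated transcripts of Glrx2, Isca1 and Iscu also share near-identical stretches with other genes, so that reads of those stretches may have been split.

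Glrx, the cytosolic dithiol glutaredoxin, had the widest WT range of the 9 genes. It stood at 262, 83.2, 92.6 and 113 in WT libraries 1 to 4, at 98.5, 128, 89.7 and 75.8 in Eμ-Myc and at 138, 94.5, 72.9 and 68.7 in the knockout group. WT library 1 was far above all other libraries, and the other 11 lay between 68.7 and 138. The log2 fold change of Eμ-Myc against WT was -0.35 (SE 0.34, 95% interval -1.13 to 0.43, adjusted p = 0.403 by limma with Benjamini-Hochberg adjustment), and it was 0.01 without WT library 1 (adjusted p = 0.958). The summed coverage of the 12 myeloid markers was 28900, 8940, 9320 and 15700 in the WT libraries, 10500, 17000, 7010 and 5900 in Eμ-Myc and 17300, 11900, 3020 and 1400 in the knockout group. S100a8 and S100a9 made up 62.9% to 79.3% of this sum in a library. In each group the library with the highest myeloid sum was also the one with the highest Glrx. Of the 12 myeloid markers 0 were called in Eμ-Myc against WT (1 had an unadjusted p under 0.05 by limma), and their part in the Glrx values was not tested.

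**Figure D2:**
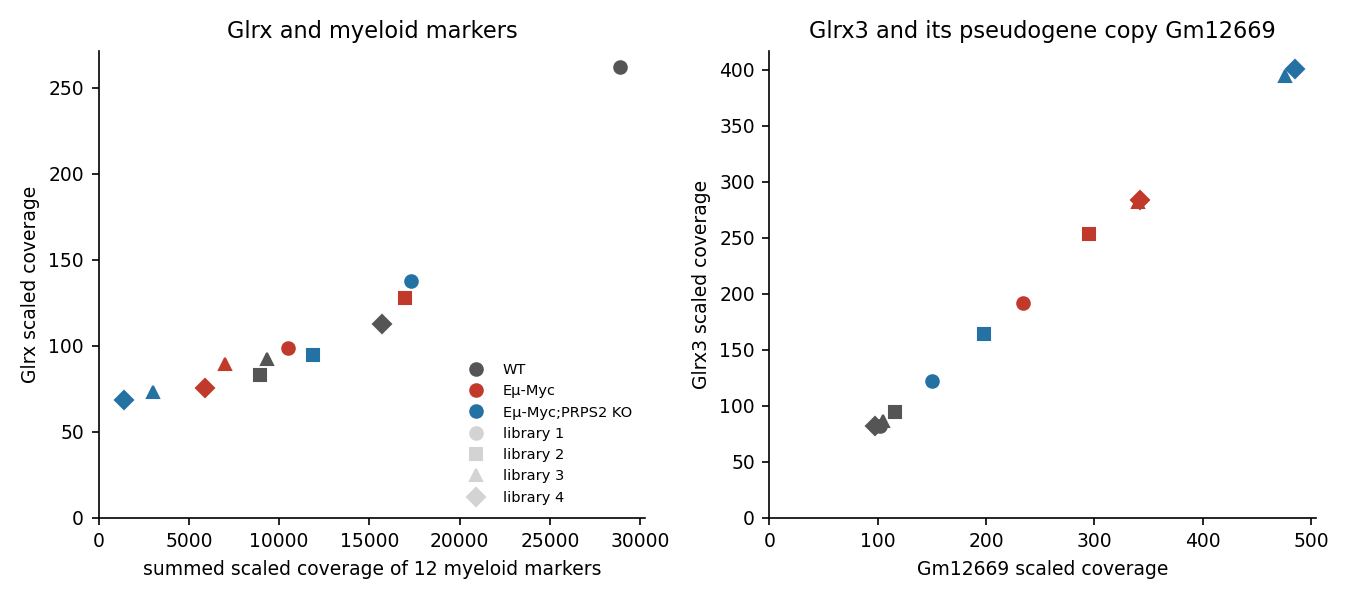
Left, scaled coverage of Glrx against the summed scaled coverage of 12 myeloid markers; right, scaled coverage of Glrx3 against its pseudogene copy Gm12669; each symbol is 1 of the 12 libraries, coloured by group. WT library 1 has the highest Glrx (262) and the highest myeloid sum (28900), and the Gm12669 to Glrx3 ratio stays between 1.17 and 1.24.

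The 4 calls were made in all 19 alternative settings of this comparison, also without WT libraries 1 and 4, which had the highest T-cell, NK-cell and myeloid sums among the WT libraries. In that setting, chosen after seeing the data, the log2 fold changes were 1.46 for Glrx3, 0.95 for Glrx5, 0.80 for Bola2 and 0.64 for Nfs1. All 9 T-cell markers and all 8 NK-cell markers were called lower in Eμ-Myc, with median log2 fold changes of -3.09 and -2.23, and 1 of 8 B-cell markers, Cd22, was called lower. Of 7 platelet markers 3 were called lower (Itga2b, Gp5 and Treml1; median -1.15), of 7 plasma-cell markers 2 were called higher (Tnfrsf17 and Mzb1) and 2 lower (Prdm1 and Xbp1), and of 10 erythroid markers 0. The part of these markers in the results was not tested.

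**Figure D3:**
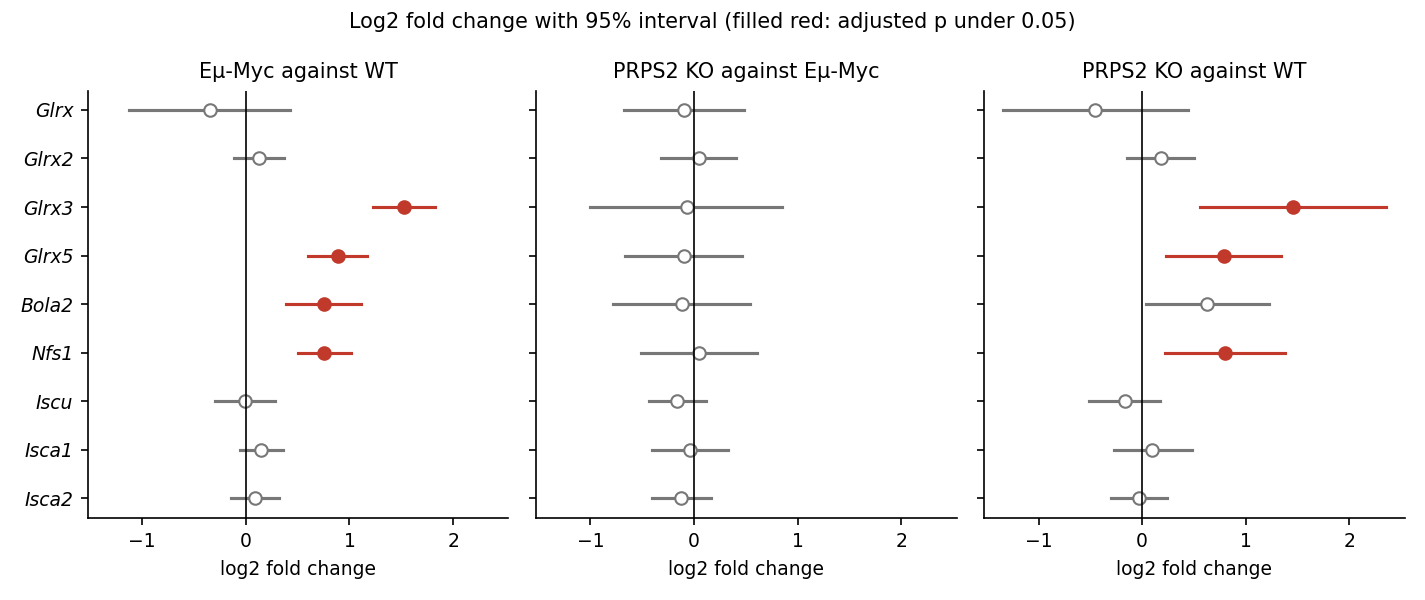
Log2 fold change of each of the 9 genes with its 95% interval from limma in the 3 comparisons (4 libraries per group); filled red symbols have an adjusted p under 0.05. Glrx3, Glrx5, Bola2 and Nfs1 are called in Eμ-Myc against WT, none in the second comparison, and Glrx3, Glrx5 and Nfs1 are called in the knockout group against WT.

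Loss of PRPS2 on the Eμ-Myc background was asked next. None of the 9 genes was called, and 0 of 9 had an unadjusted p under 0.05 (limma). In this comparison 0.00799% of the 12518 genes tested were called, Prps2 being that gene, and 0.943% (118 genes) reached an unadjusted p under 0.05. The group means were close for the monothiol glutaredoxins: Glrx3 was at 253 ± 43.0 (SD, n = 4) in Eμ-Myc and at 270 ± 148 (SD, n = 4) with PRPS2 lost. Glrx5 was at 152 ± 20.5 and 147 ± 50.2 (SD, n = 4 each). The intervals show what size of difference these libraries could leave unseen. The log2 fold change of Glrx3 was -0.07 with a 95% interval from -1.0 to 0.85.

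For Bola2 the log2 fold change of the knockout group against Eμ-Myc was -0.12 (95% interval -0.78 to 0.54). For Glrx5 it was -0.10 (95% interval -0.67 to 0.46), and for Nfs1 it was 0.05 (95% interval -0.51 to 0.61). The dithiol forms and the scaffold had narrower or similar intervals. Glrx was at -0.10 (95% interval -0.68 to 0.48), Glrx2 at 0.05 (95% interval -0.32 to 0.41) and Iscu at -0.16 (95% interval -0.43 to 0.12). Isca1 was at -0.04 (95% interval -0.41 to 0.33) and Isca2 at -0.13 (95% interval -0.41 to 0.16). A missed threshold does not show equal levels, and none of these intervals is narrow enough for that.

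The ratio of the highest to the lowest library was largest in the knockout group for 7 of the 9 genes. Glrx, at 2.01 in the knockout group and 3.16 in WT, and Iscu, at 1.28 and 1.45, had their largest ratio in WT. The highest Glrx3 library of the knockout group was 3.28 times the lowest, against 1.48 times in Eμ-Myc and 1.16 times in WT. For Bola2 the ratios were 2.11 and 1.73 and 1.21, for Glrx5 they were 2.09, 1.39 and 1.27, and for Nfs1 they were 2.08, 1.19 and 1.34, in the same order of groups. The 4 genes that rose with Myc split the knockout libraries the same way, with libraries 1 and 2 low and 3 and 4 high. On a log2 scale where the WT mean is 0% and the Eμ-Myc mean 100%, Glrx3 in knockout libraries 1 to 4 was at 33.0%, 60.2%, 143% and 145%. Nfs1 was at 30.4%, 65.2%, 162% and 170%. Glrx5 was at 30.2%, 52.6%, 149% and 122%, and Bola2 at 24.4%, 20.7%, 164% and 126%. Myc itself was at 74.2%, 94.7%, 124% and 128%, with the same low and high pairs. These percentages are relative to each gene's own difference between Eμ-Myc and WT, which was larger for Myc, and in coverage its highest knockout library was 2.76 times the lowest. For all 4 genes libraries 1 and 2 lay between the WT and Eμ-Myc means, and libraries 3 and 4 lay above the Eμ-Myc mean.

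**Figure D4:**
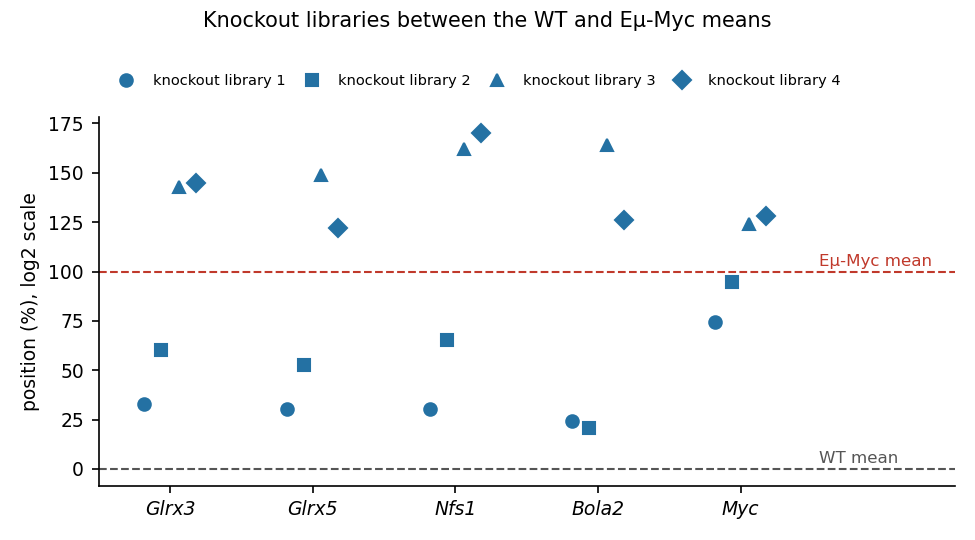
Position of each knockout library between the WT mean (0%) and the Eμ-Myc mean (100%) on the log2 scale, for the 4 genes that rose in Eμ-Myc and for Myc. Libraries 1 and 2 lie between 20.7% and 94.7%, and libraries 3 and 4 between 122% and 170%.

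The comparison with Eμ-Myc moved with the knockout libraries that entered. Without knockout libraries 1 and 2, which had the higher T-cell, NK-cell and myeloid sums, Glrx3 had a log2 fold change of 0.67 (adjusted p = 0.0259) and Nfs1 of 0.50 (adjusted p = 0.0163), both by limma with Benjamini-Hochberg adjustment. Without libraries 3 and 4, Glrx3 was at -0.82 (adjusted p = 0.0558) and Nfs1 at -0.39 (adjusted p = 0.0882) by the same test. Both settings were chosen after seeing the data and leave 2 knockout libraries, so they are given to show the range and not as results on PRPS2. With library quality weights, which gave knockout libraries 1 and 2 weights of 0.0866 and 0.13 and libraries 3 and 4 weights of 3.09 and 8.2, limma called 5 of the 9 genes: Glrx3, Nfs1, Glrx2 and Isca1 higher and Glrx lower. The weights called 57.9% of all genes tested, close to the share of 5 of 9, and 27% and 3.69% were called without libraries 1 and 2 and without libraries 3 and 4.

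Set against WT, the knockout group had higher Glrx3, Glrx5 and Nfs1. Glrx3 had a log2 fold change of 1.46 (SE 0.39, adjusted p = 0.0324), Nfs1 of 0.80 (SE 0.25, adjusted p = 0.0448) and Glrx5 of 0.79 (SE 0.24, adjusted p = 0.042), by limma with Benjamini-Hochberg adjustment. These 3 of 9 genes were called higher and 0 lower, where 31.6% of 12700 genes were called in all, 17.9% higher and 13.7% lower. Bola2 had a log2 fold change of 0.63 (SE 0.25) and did not pass, with an adjusted p of 0.0819 by limma, although its groups did not overlap. Every knockout library was above every WT library for Glrx3, Glrx5, Nfs1 and Bola2, 4 of 9 genes, against 20.7% of all genes tested. The median log2 fold change was 0.18 over the 9 genes and -0.11 over all genes tested. Without knockout libraries 1 to 4 in turn, the median of the 9 genes was 0.24, 0.26, 0.09 and 0.11. It was 0.40 without knockout libraries 1 and 2, and -0.05 without libraries 3 and 4. This comparison shares its WT libraries with the first, and its knockout libraries with the second, so its values are no separate support for either.

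Markers of other cell types also differed between the knockout group and WT. Of 7 platelet markers 6 were called lower, with a median log2 fold change of -2.10, and their sum was 116 to 506 in WT and 42.1 to 176 in the knockout group. The 9 T-cell markers had a median of -3.29 and the 8 NK-cell markers of -2.61, and 0 of either were called, with an unadjusted p under 0.05 for 6 and 3 of them (limma). Of 12 myeloid markers 0 were called (median -1.29, 1 with an unadjusted p under 0.05). Cd22 of the B-cell markers was called lower, Mzb1 of the plasma-cell markers higher, and 0 of 10 erythroid markers were called. In the knockout group against Eμ-Myc 0 markers of these 7 lists were called, and 3 platelet markers, 1 B-cell and 1 plasma-cell marker had an unadjusted p under 0.05 (limma). Their part in the values of the 9 genes was not tested.

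The calls of Glrx3, Glrx5 and Nfs1 against WT lay near the threshold and were lost in most fits that left out 1 library. Without any 1 of the WT libraries, or without knockout library 3 or 4, limma called 0 of the 9 genes, and 4.71% to 11.9% of all genes tested. The adjusted p of Glrx3 was then 0.0754, 0.077, 0.08 and 0.0693 without WT libraries 1 to 4 in turn, and 0.0835 and 0.0855 when knockout library 3 or 4 was left out. With knockout library 1 or 2 left out, 4 genes were called, with Bola2 at an adjusted p of 0.0331 and 0.0468 by limma, where 55.1% and 34.9% of all genes were called. The number of calls among the 9 genes thus moved with that over all genes. A scaling over all genes above 0, added after seeing the data, kept Glrx3 (adjusted p = 0.0386, limma with Benjamini-Hochberg adjustment) and lost the calls of Glrx5 and Nfs1, at 0.0514 and 0.0543. The log2 fold change of Glrx3 ran from 0.71 to 2.20 over all 20 alternatives and stayed above 0.

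The remaining genes did not pass against WT. Glrx was at -0.45 (adjusted p = 0.351), Glrx2 at 0.18 (adjusted p = 0.314), Iscu at -0.17 (adjusted p = 0.359), Isca1 at 0.10 (adjusted p = 0.606) and Isca2 at -0.03 (adjusted p = 0.823), all log2 fold changes by limma with Benjamini-Hochberg adjustment. Over the alternatives Glrx ran from -0.79 without knockout libraries 1 and 2 to -0.09 without WT library 1. Isca1, Glrx2 and Isca2 repeated the split of the knockout libraries on a smaller scale: Isca1 stood at 31.8, 38.0, 48.1 and 51.0 in knockout libraries 1 to 4. Glrx2 stood at 51.1, 48.5, 69.2 and 66.7, and Isca2 at 56.3, 54.3, 68.9 and 65.9. Glrx split the other way, with 138 and 94.5 in libraries 1 and 2 above 72.9 and 68.7 in libraries 3 and 4. Iscu did not split, with 178, 156, 200 and 172.

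The order of the 9 levels changed with Myc. In WT the highest mean was that of Bola2 at 216, followed by Iscu at 200 and Glrx at 138, and these neighbours overlapped. Glrx3 and Glrx5 came next at 86.2 and 81.8 and overlapped each other, and below them Isca2 at 62.6, Glrx2 at 51.4 and Nfs1 at 43.6 were each separate from the gene above. Isca1 was lowest at 38.6 and overlapped Nfs1. In Eμ-Myc Glrx3 moved from the fourth place to the second at 253, between Bola2 at 371 and Iscu at 197, with which it overlapped. Glrx5 at 152 was then separate from Iscu, and Nfs1 at 73.6 came above Isca2 at 66.9, which it overlapped, and Isca2 overlapped Glrx2 at 56.6. Isca1 stayed lowest at 42.9, below every Glrx2 library. In the knockout group the order of the means was that of Eμ-Myc, and each gene overlapped the next. All places hold for the listed coverage only, whose gene models are not given. Those of Glrx3 have a further limit. Its copy Gm12669, with means of 105 in WT and 303 in Eμ-Myc, may hold part of its reads.

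The rest of the iron-sulfur pathway was described from 4 lists. Of 20 further genes of the mitochondrial assembly and export machinery, 13 were called higher in Eμ-Myc and 0 lower, with a median log2 fold change of 0.61. The mitochondrial BolA protein Bola1 had a log2 fold change of 1.53 and the chaperone Hspa9 of 1.29. Of 12 genes of the cytosolic machinery and its relatives 5 were called higher and 0 lower, with a median of 0.10. The largest of these were Cisd1, an iron-sulfur protein of the outer mitochondrial membrane, at 1.61, Fam96a at 0.78 and the scaffold Nubp2 at 0.63. Over all genes tested 27% were called higher, 57.1% were called in either direction, and the median was -0.11.

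Genes of proteins that carry clusters were read against the same background of 27% called higher and 57.1% called. Among genes of nuclear and cytosolic clients 14 of 21 tested were called higher in Eμ-Myc and 1 lower, with a median log2 fold change of 0.57. The calls in either direction in both client lists lay near the share over all genes, and nearly all of them were higher. The chromosome-bound kinesin Kif4 was at 2.62, the DNA polymerase subunit Pole at 2.38 and the primase subunit Prim2 at 1.85, and these genes act in replication and mitosis. Rsad2, an interferon-induced radical enzyme, was the gene called lower, at -1.40 (adjusted p = 0.0032), and it was not called in the fit of all 12 libraries (adjusted p = 0.0696), both by limma with Benjamini-Hochberg adjustment. Among genes of mitochondrial clients 9 of 13 were called higher and 0 lower, with a median of 0.62. The complex I subunits Ndufv1 and Ndufv2 were at 0.87 and 0.84 and the Rieske protein Uqcrfs1 of complex III at 0.84.

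In the knockout group against Eμ-Myc limma called 0 genes of these 4 lists, and 0 had an unadjusted p under 0.05, with medians from -0.09 to 0.03. With library quality weights the counts called were 12 of 20 mitochondrial assembly genes, 8 of 12 cytosolic assembly genes, 16 of 21 nuclear and cytosolic clients and 7 of 13 mitochondrial clients, against 57.9% of all genes. Without knockout libraries 1 and 2 they were 3, 0, 6 and 2, against 27% of all genes, and without libraries 3 and 4 they were 1, 0, 0 and 0, against 3.69%.

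Against WT the knockout group had 4 of 20 mitochondrial assembly genes called higher, 1 of 12 cytosolic assembly genes, 11 of 21 nuclear and cytosolic clients and 2 of 13 mitochondrial clients, and 0 called lower in any list. Over all genes tested 17.9% were called higher, and the counts of both assembly lists and of the mitochondrial clients lay near or below that share. The medians of the 4 lists were 0.57, 0.09, 0.61 and 0.61, against -0.11 over all genes tested. Hspa9 was at 1.42 and Ndufab1, the mitochondrial acyl carrier protein, at 1.14 on the log2 scale. Cisd1 was at 1.46, Kif4 at 2.57, Pole at 2.50 and Prim2 at 1.77, and of the mitochondrial clients called Fech was at 0.41. Without knockout library 3 the counts were 1, 0, 4 and 0, and without library 4 they were 0, 0, 4 and 0, in the same order of lists, against 5.68% and 4.89% of all genes called. Without WT library 1, 2, 3 or 4 the count of nuclear and cytosolic clients was 5, 4, 4 and 5, against 7.29%, 4.71%, 5.05% and 11.9% of all genes. Without any 1 of them no cytosolic assembly gene and no mitochondrial client was called, and no mitochondrial assembly gene was called without WT library 1, 2 or 3. Without knockout library 1 the counts were 14 mitochondrial assembly genes, 3 cytosolic assembly genes and 10 mitochondrial clients, against 55.1% of all genes, and without knockout library 2 the count of mitochondrial clients was 6, against 34.9%. With library quality weights the counts were 16, 8, 20 and 13, against 83.6% of all genes. Without knockout libraries 1 and 2 they were 14, 6, 19 and 11, against 70.6%, and with all 12 libraries in one fit 9, 3, 15 and 9, against 48.8%. Without knockout libraries 3 and 4 the counts were 3, 1, 6 and 1, against 11.4%. The replicate block gave 2, 1, 7 and 0, against 14.9%. The setting with no filter gave 4, 1, 7 and 1, against 18.7%. Total coverage scaling gave 5, 2, 11 and 4, against 29.7%.

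**Figure D5:**
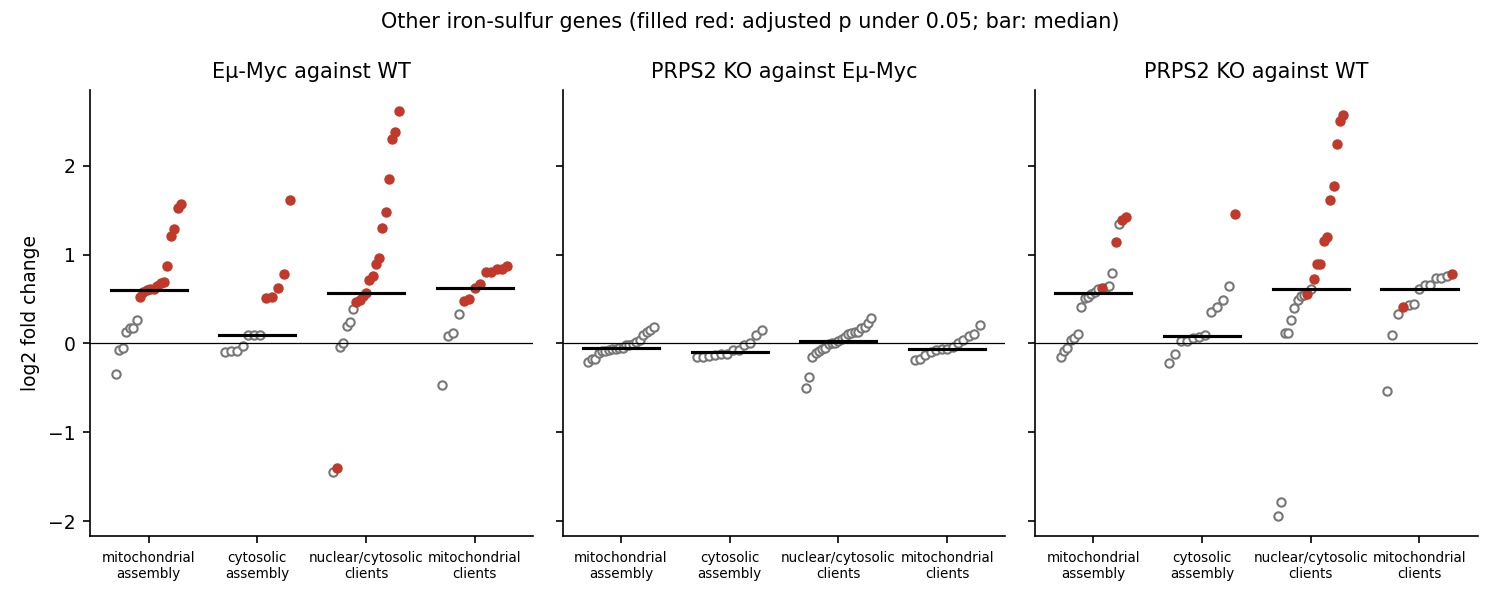
Log2 fold change of each tested gene of 4 iron-sulfur lists in the 3 comparisons (limma, 4 libraries per group), with filled red symbols at an adjusted p under 0.05 and a bar at the list's median. In Eμ-Myc against WT the medians are 0.61, 0.10, 0.57 and 0.62, and the middle panel holds no filled symbol.

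For each of the 9 genes, the 2 genes with the closest pattern over the 12 libraries were looked up among 9659 genes, without Gm and Rik symbols, by the root mean square difference of centred log2 values. Glrx5 was closest to Fcf1 at 0.0514 and Ndufv1 at 0.0536, while its own spread over the libraries was 0.486. Nfs1, with a spread of 0.463, was closest to Mrpl3 at 0.0525 and Lzic at 0.0686. Bola2, with the same spread of 0.463, was closest to Pfdn1 at 0.0529 and Mrps24 at 0.0567. Glrx3, with a spread of 0.841, was closest to Timm50 at 0.0798 and Cinp at 0.0807; its copy Gm12669, outside the search, was nearer at 0.0198. Glrx was closest to Alas1, the haem synthesis enzyme outside the erythroid lineage, at 0.141, and to Ap3s1 at 0.164, with a spread of 0.505. Alas1 stood at 122, 44.6, 43.3 and 54.1 in WT libraries 1 to 4, so that library 1 was high here too. The weakly varying genes had closest patterns at 0.068 to 0.0826 against spreads of 0.13 to 0.177: Fkbp8 and Fam207a for Glrx2, Lamtor1 and Anxa7 for Iscu, Emc3 and Ccdc59 for Isca1, and Atp6v1h and Tbca for Isca2. These differences describe likeness over the same 12 libraries only.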

How the data were processed

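Polyadenylated RNA of splenic B lymphocytes was made into directional libraries, per the labels' protocols, and the 12 libraries were grouped by their genotype labels. For each library the authors deposited a table of gene symbols with their mean coverage, a signal with 1 decimal of which 91.6% of values above 0 were not whole numbers. The submitters' processing notes name mm10, DESeq and R 4.3.3; the aligner, the annotation, the use of strand and the treatment of reads with several matches are not given in the sources used here. Summed over genes, coverage lay between 1277305.5 and 1885768.9 in a library, with 14900 to 16231 genes above 0. Read depth is unknown, so no counting interval is given and precision comes from the spread between libraries, which may in part be technical.

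One scaling factor per library (0.855 to 1.192) came from trimmed means of log ratios to the mean log profile, over 10992 genes with a coverage of at least 1 in every library, with trims of 30% (ratios) and 5% (mean values) at either end. This gene set was chosen after a first version over all genes above 0 had been seen, which is kept as an alternative. Each comparison tested the genes that reached 1 in 4 or more of its 8 libraries, with limma 3.58.1 (trend, robust, two-sided) on log2(scaled coverage + 0.5), whose fold changes understate the change of low genes. A gene was called when its p, adjusted by Benjamini-Hochberg over all genes tested, was under 0.05. The method was also run on simulated data, with the same spread in both groups and independent noise for each gene. That run does not cover the wider knockout group, whose libraries split together over many genes.

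The members and lists were chosen with earlier results of these data known. From each list, called genes with separate groups and a mean of 8 or more were named, up to 3 with the largest change in each direction; Gm12669 and the overlapping genes were named after their values were seen. Values of some genes that this rule names are not reported here; the list counts and medians include them. Same-numbered libraries of Eμ-Myc and the knockout group deviated together (r of 0.659, 0.193, 0.255 and 0.608 across genes), so their numbers were treated as pairs in an alternative; the labels state no pairing, and 4 of 24 matchings met the same condition. Alternatives were other scalings, filters, pseudocounts of 0.1 and 2, a replicate block, a fit of all 12 libraries, library quality weights and leaving out libraries. Promoter windows are RefSeq's (GRCm38.p6), gene models are GENCODE's on GRCm38, and near copies were found with BLAST 2.17.0 (at least 95% identity over 200 bases). Tables and figures used Python 3.11.15, numpy 2.4.6, pandas 2.3.3 and matplotlib 3.10.9.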

Additional observations from a re-analysis of the deposited data

Results flagged for a closer look

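In groups of 4 libraries, the gap of the highest or lowest library to its nearest neighbour was set against the range of its group, for the 9 genes and the named iron-sulfur genes. Of 75 groups 4 held a library that stood apart by Dixon's criterion, and chance alone flags about 1 in 20 groups. Among the 27 groups of the 9 genes it was 1, Glrx in WT library 1, at a scaled coverage of 262 with a gap of 0.835 of the range. Of 12 myeloid markers 8 were highest of all 12 libraries in the same library, among them S100a8 and S100a9 at 5860 and 14800, and 4 (Csf1r, Elane, Mpo and Adgre1) were higher in another library; their part in the Glrx value was not tested. The other 3 were Bola1 in Eμ-Myc library 1, low at 38.5, Ndufv1 in WT library 3, low at 90.2, and Nubp2 in WT library 2, high at 212.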

How the results depend on the processing

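In Eμ-Myc against WT the 4 calls (Glrx3, Glrx5, Nfs1 and Bola2) were made under all 19 alternatives, while the count over all genes ran from 4953 with a filter of 10 in every library to 9045 with library quality weights. The share of calls that were higher was 47.4%, and between 42% and 54.5% under other scalings, which moved the median of all genes between -0.19 and -0.01. Iscu turned to 0.03 with median-of-ratios scaling, to 0.09 with the scaling over all genes above 0, and to 0.07, 0.04, 0.03 and 0.01 without WT library 1 or 2 or Eμ-Myc library 3 or 4. With 1 library left out Glrx ran from -0.54 to 0.01, the last without WT library 1, and it turned to 0.13 without WT libraries 1 and 4. Glrx2, with 1 library left out, ran from 0.04 without Eμ-Myc library 2 to 0.18 without Eμ-Myc library 1.

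In the knockout group against Eμ-Myc 0 of the 9 genes and 1 of all genes were called, except with quality weights (5 and 7246), without knockout libraries 1 and 2 (2 and 3283) and, for all genes, without knockout libraries 3 and 4 (458). With the weights Glrx3, Glrx5, Isca1 and Bola2 turned to 0.55, 0.23, 0.24 and 0.29, and without libraries 1 and 2 to 0.67, 0.31, 0.21 and 0.34, with Isca2 at 0.02. Without libraries 3 and 4 Glrx turned to 0.24, Glrx2 to -0.17, Nfs1 to -0.39 and Myc to -0.42. Without knockout library 1 the values of Glrx3, Glrx5, Isca1 and Bola2 were 0.24, 0.07, 0.08 and 0.03, and without library 2 those of Glrx3, Glrx5 and Bola2 were 0.10, 0.00 and 0.03; the lowest values with 1 library left out were -0.33, -0.28, -0.14 and -0.32 for Glrx3, Glrx5, Isca1 and Bola2. Without knockout library 3 those of Glrx, Glrx2, Nfs1 and Myc were 0.00, -0.03, -0.09 and -0.03, and without library 4 they were 0.03, -0.02, -0.11 and -0.07. Without Eμ-Myc library 1 Glrx2 was at -0.01, and without library 2 Glrx was at 0.04; with 1 library left out the lowest Glrx was -0.30, the highest Glrx2 0.14 and the highest Myc 0.42. The replicate block, which pairs these libraries by number, called 0 of the 9 genes and 1 gene in all, and it changed no call here or in Eμ-Myc against WT among the 9 genes.

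In the knockout group against WT 3 of the 9 genes and 4014 of all genes were called. The 9 genes gave 1 call with the scaling over all genes above 0 and 1 with no filter, 7 with quality weights (10622 over all genes), 6 without knockout libraries 1 and 2 (8689) and 1 without libraries 3 and 4 (1423). The fit of all 12 libraries called 6194 genes. Leaving out 1 library gave 0 to 4 of the 9 genes and 593 to 6880 of all genes. Whether same-numbered libraries of these groups were paired is not stated by the labels, and their deviations had r of 0.397, -0.423, 0.136 and -0.063 across genes. The replicate block called 0 of the 9 genes and 1886 in all. Isca2 turned to 0.03 with median-of-ratios scaling, 0.04 with the scaling over all genes above 0, 0.08 with quality weights, 0.11 without knockout libraries 1 and 2, and 0.00, 0.01 and 0.02 without WT library 2 or knockout library 1 or 2. Without knockout libraries 3 and 4 Glrx2 was at -0.05 and Isca1 at -0.15. The cause of these changes was not tested. Read depth is unknown and each group has 4 libraries, so small differences cannot be resolved; the scaling over all genes above 0 and the settings without 2 libraries were chosen after seeing the data.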
